A study of Mus musculus with 6 samples.

Results

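The metabolism of the endocannabinoid 2-arachidonoylglycerol (2-AG) and its reception by neurons were followed here through the transcripts of 8 genes, in the prefrontal cortex of mice labelled as *Pla2g4e* knockouts and of wild-type mice. The 8 genes were chosen by name out of the 56923 genes in the tables. They are the diacylglycerol lipases *Dagla* and *Daglb*, the monoacylglycerol hydrolases *Mgll*, *Abhd6* and *Abhd12*, the cannabinoid receptor gene *Cnr1*, its interacting protein *Cnrip1*, and the nuclear receptor gene *Ppara*. RNA was sequenced from 3 knockout (KO) and 3 wild-type (WT) samples. The KO mice carried the constitutive *Pla2g4e* tm2a allele (EUCOMM) on a C57BL/6N-A tm1Brd background. The study's methods predict that this allele is null, by splicing to a LacZ gene trap. The labels name no treatment, and the age, sex and litter of the sequenced mice are not given in the sources used here. It is also not stated that the 3 samples of a group came from separate animals, so p-values measure the spread between these samples.

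2-AG is made on demand in the postsynaptic neuron, where receptors coupled to the G protein Gq activate phospholipase C and the diacylglycerol that results is cleaved by a diacylglycerol lipase. It then travels backwards across the synapse to CB1, the receptor encoded by *Cnr1*, and lowers transmitter release from the presynaptic terminal. Hydrolases on both sides of the synapse and in glia end the signal. In the cortex CB1 is densest on the terminals of interneurons that contain cholecystokinin, with lower levels on glutamatergic terminals. PLA2G4E itself acts on a neighbouring route, since it makes the N-acyl phospholipids from which N-acylethanolamines are released, and some of these activate PPAR-alpha, the product of *Ppara*.

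Library totals lay between 11792463 and 14594230 fragments. All 8 genes passed the filter on low counts, a minimum of 6 fragments in 1 or more libraries, as did 19084 genes in all. *Pla2g4e*, the targeted gene, bears on the labels themselves. It was at 5.95, 8.12 and 7.97 CPM (counts relative to library size, after TMM scaling) in KO and at 7.84, 11.3 and 13.2 CPM in WT. The library labelled WT replicate 1 fell inside the KO range, so the groups overlapped. The fitted change of *Pla2g4e* was -31.5% (log2 fold change -0.55, SE 0.21, unadjusted p = 0.0205 and adjusted p = 0.635 in limma-voom). Its unadjusted p-value was 0.0923 without KO replicate 1, 0.0557 without WT replicate 2 and 0.0943 without WT replicate 3, with log2 fold changes of -0.39, -0.50 and -0.39. Without the library labelled WT replicate 1 the log2 fold change was -0.76 (unadjusted p = 0.00113 in limma-voom). Of 18 alternative fits, 14 gave *Pla2g4e* an unadjusted p-value under 0.05, and the adjusted p-value was 0.299 or more in all of them. Fragments over the exons of *Pla2g4e* were thus counted in all 3 KO libraries, and directions given here follow the labels. The libraries also split by sex-linked genes, and this split crossed the groups. Within each side of it, the KO values of *Pla2g4e* lay below the WT values without overlap, and in the 4 libraries with Y-linked expression its log2 fold change was -0.60 (SE 0.18, unadjusted p = 0.00299 and adjusted p = 0.999 in limma-voom). *Xist* was high in the library labelled WT replicate 1 and in KO replicate 1, and the summed Y-linked genes were at 182 to 190 CPM in the other 4 libraries. The neuron markers fixed for these samples, among them *Slc17a7* of cortical excitatory neurons, summed to 11889 to 13454 CPM and none was at 0. Markers of striatal neurons were also present, at 255 to 450 CPM in sum, and were highest in KO replicate 2 and WT replicate 3.

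With limma-voom, the model that tested all genes together, 0 of the 8 genes passed the threshold of 0.05 on the adjusted p-value, and 0% of the 19084 genes did. Adjusted p-values of the 8 genes ran from 0.635 to 0.951. At an unadjusted p-value under 0.05 there was 1 of the 8 genes, *Cnr1*, against 7.82% of all genes tested, or 3.44% in its direction, lower in KO. By the edgeR quasi-likelihood test and DESeq2, 0 of the 8 passed the adjusted threshold as well, and 0 and 1 had an unadjusted p-value under 0.05. The fitted change had the sign of lower in KO for 7 of the 8 genes, as it did for 48.1% of all genes. The sign of *Mgll* among them was not stable, since it was positive with library totals alone and without KO replicate 1, KO replicate 2 or WT replicate 2. *Ppara* was the 1 gene of the 8 whose KO and WT values did not overlap, and 13% of all genes tested had no overlap, 6.72% with higher and 6.29% with lower values in KO.

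The data bound the changes more tightly than they detect them. Apart from *Ppara*, the 95% confidence intervals of the 7 other genes lay between changes of -20.7% and 10.8% in KO relative to WT. The coefficient of variation over the 6 libraries was 6.64% to 11.3% for those genes and 17.2% for *Ppara*, which has the fewest fragments. In bulk tissue, fewer cells of a type and less RNA per cell cannot be told apart, and this holds for each value below.

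**Figure D1:**
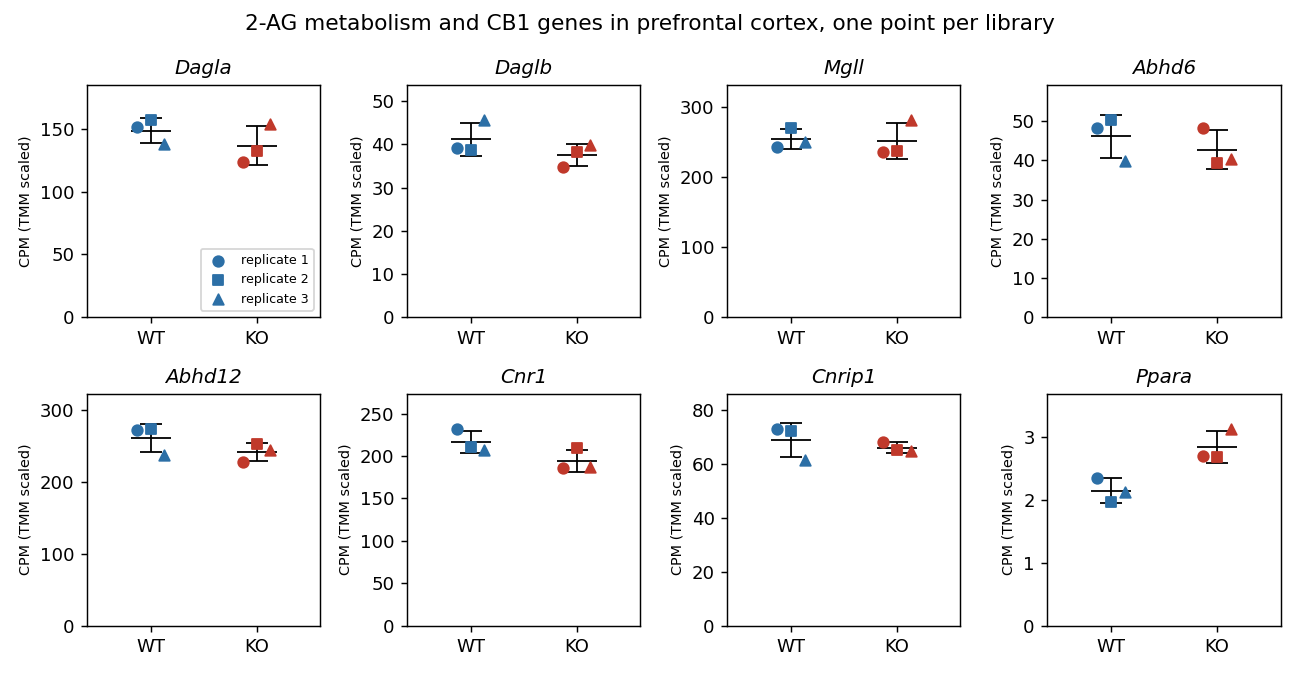
Expression of the 8 genes in CPM after TMM scaling (vertical axes from 0), by group, with 1 point per library and a marker shape for each replicate number, and with bars for the mean and SD of 3 libraries. *Ppara* is the panel in which the groups do not overlap, with KO at 2.68 to 3.12 CPM and WT at 1.96 to 2.35 CPM.

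*Dagla* encodes DAGL-alpha, the lipase that supplies most of the 2-AG used in retrograde signalling in the adult brain. The gene (ENSMUSG00000035735.11) spans bases 10222629 to 10282241 of chromosome 19 in GRCm39, on the minus strand. It was at 124, 133 and 154 CPM in KO replicates 1 to 3 and at 152, 157 and 138 CPM in WT, where the library labelled WT replicate 1 is given first. The groups overlapped, with KO replicate 3 above 2 of the WT libraries. The log2 fold change of KO over WT was -0.13 (SE 0.09, unadjusted p = 0.162 and adjusted p = 0.695 in limma-voom), with a 95% interval of -19.5% to 4.16%. Single libraries moved this value, which was -0.06 without KO replicate 1 and -0.22 without KO replicate 3. In the latter fit the limma-voom p-value was 0.0265 unadjusted and 0.610 adjusted.

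*Daglb* encodes DAGL-beta, the related lipase that is prominent in microglia and peripheral immune cells. The gene (ENSMUSG00000039206.14) lies on the plus strand of chromosome 5, from 143450339 to 143491697, and 2309 of its 9567 exonic bases face exons of *Rac1* on the other strand. Counting used the strand, so that fragments of the 2 genes were kept apart. *Daglb* was at 34.8, 38.2 and 39.8 CPM in KO and at 39.3, 38.7 and 45.6 CPM in WT. The groups overlapped through KO replicate 3, and WT replicate 3 was the highest. For *Daglb* the fitted log2 fold change was -0.13 (SE 0.09, unadjusted p = 0.169 in limma-voom), and it was -0.06 without WT replicate 3 and -0.07 without KO replicate 1. Per exon length, *Dagla* made up 85.8% ± 0.675 (SD, n = 3) of the summed lipase transcript in KO and 85.7% ± 1.97 (SD, n = 3) in WT.

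*Mgll* encodes monoacylglycerol lipase, the principal 2-AG hydrolase of brain, found in presynaptic terminals and astrocytes. The gene (ENSMUSG00000033174.18) spans chromosome 6 from 88701394 to 88805342 on the plus strand. It was at 235, 237 and 281 CPM in KO and at 243, 270 and 250 CPM in WT. The lowest 2 and the highest library were both KO, so the WT values lay inside the KO range. The log2 fold change was -0.02 (SE 0.08, unadjusted p = 0.786 in limma-voom), and the interval ran from -12.5% to 10.8%. The fragments of the antisense gene *Gm26588*, which shares 167 exonic bases with *Mgll* on the other strand, numbered at most 56 in a library.

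*Abhd6* encodes a membrane-bound hydrolase of the postsynaptic side, which also binds AMPA receptors. The gene (ENSMUSG00000025277.15) lies on chromosome 14 from 14413010 to 14466871, on the minus strand. It was at 48.4, 39.4 and 40.5 CPM in KO and at 48.2, 50.3 and 40.0 CPM in WT. Each group held libraries of both a higher and a lower level, and 3 libraries, 1 of KO and 2 of WT, were above 48 CPM. For *Abhd6* the fitted log2 fold change was -0.10 (SE 0.11, unadjusted p = 0.353 in limma-voom). Each single library moved this value, from -0.04 without WT replicate 2 to -0.20 without KO replicate 1 and -0.21 without WT replicate 3.

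*Abhd12* encodes a hydrolase that acts on lysophosphatidylserine as well as on 2-AG, and loss of the human gene causes a neurodegenerative disease known as PHARC. The gene (ENSMUSG00000032046.16) lies on the same chromosome as *Pla2g4e*, chromosome 2, from 150674413 to 150746661, which is 30.6 Mb away from it. It was at 228, 253 and 245 CPM in KO and at 272, 274 and 238 CPM in WT. WT replicate 3 lay within the KO range, and the other WT libraries were above all KO libraries. On the log2 scale the fold change was -0.11 (SE 0.07, unadjusted p = 0.151 in limma-voom). Without WT replicate 3 it was -0.18 with an unadjusted p-value of 0.0258, and the adjusted limma-voom p-value was then 0.367. Without KO replicate 1 it was -0.07.

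The 3 hydrolases kept similar proportions in the groups. Per exon length, *Abhd12* was 55.5% ± 2.28 (SD, n = 3) of their summed transcript in KO and 56.6% ± 1.26 (SD, n = 3) in WT. *Mgll* was 32.0% ± 2.21 in KO and 30.7% ± 1.81 in WT, and *Abhd6* was 12.5% ± 1.83 and 12.7% ± 0.711. All 3 differences were smaller than the SD within the groups. The ratio of *Mgll* to *Dagla* per exon length, which sets the main hydrolase against the main synthase at the level of RNA, was 2.15, 2.02 and 2.06 in KO. In WT it was 1.81, 1.94 and 2.05. The ranges overlapped, since WT replicate 3 lay within the KO range.

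**Figure D2:**
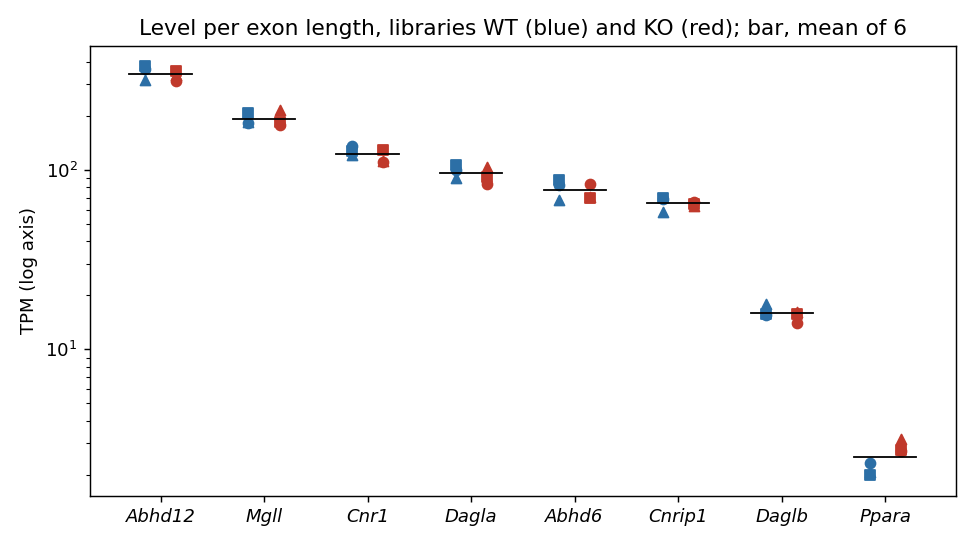
Level per exon length in TPM (log axis) of the 8 genes in decreasing order, with WT libraries in blue, KO libraries in red, marker shapes for replicates 1 (circle), 2 (square) and 3 (triangle), and a bar for the mean of the 6 libraries. *Abhd12* is highest at 344 TPM and *Ppara* lowest at 2.51 TPM, and within each gene the red and blue points lie close together on this scale.

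Levels of different genes were compared per exon length as TPM (counts divided by exon length, then scaled to the same total in each library). Over the 6 libraries the order was *Abhd12* (344 TPM, range 312 to 377), *Mgll* (192, 179 to 215), *Cnr1* (123, 111 to 136), *Dagla* (95.8, 83.0 to 106), *Abhd6* (77.0, 67.7 to 87.8), *Cnrip1* (65.1, 58.0 to 70.1), *Daglb* (15.9, 14.04 to 18.0) and *Ppara* (2.51, 1.99 to 3.16). Ranges of neighbours overlapped for *Dagla* and *Abhd6* and for *Abhd6* and *Cnrip1*, and did not overlap for the other neighbours. Among the tested genes, *Abhd12* stood at percentile 98.4 and *Ppara* at percentile 23.9 of mean TPM. Exon length here counts every annotated exon of a gene, and which exons were used in these samples was not examined.

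*Cnr1* encodes CB1, and it had the lowest p-value of the 8 genes. The gene (ENSMUSG00000044288.7) lies on the plus strand of chromosome 4, from 33924593 to 33948831. It was at 185, 209 and 187 CPM in KO, from 2743, 2496 and 2394 fragments. It was at 232, 211 and 207 CPM in WT, from 2956, 2574 and 2643 fragments. KO replicates 1 and 3 lay below all WT libraries, and KO replicate 2 lay between WT replicate 3 and WT replicate 2. The KO libraries averaged 194 ± 13.2 CPM and the WT libraries 217 ± 13.2 CPM (SD, n = 3 each). The log2 fold change was -0.16 (SE 0.07), a change of -10.6% with an interval of -19.8% to -0.422%, and the limma-voom p-value was 0.0429 unadjusted and 0.635 adjusted over all genes. In the 18 alternative fits the log2 fold change was between -0.25 and -0.08, the unadjusted p-value was under 0.05 in 11 and the adjusted p-value was 0.387 or more. Among the 11 were the limma-voom fits without KO replicate 2 (unadjusted p = 0.0174), without WT replicate 3 (0.0319) and without both (0.0144, added after the data were seen). These left out the highest KO or the lowest WT library for *Cnr1*, so the difference had to widen in them. The unadjusted p-value was 0.163 when the library labelled WT replicate 1 was left out, and it was 0.119 and 0.135 on leaving out KO replicates 1 and 3, and 0.0538 on leaving out WT replicate 2.

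The *Cnr1* value was also read on each side of the split by sex-linked genes. In the 4 libraries with Y-linked expression the log2 fold change was -0.08 (SE 0.08, unadjusted p = 0.314 in limma-voom). Between the library labelled WT replicate 1 and KO replicate 1, the single library of each group without Y-linked expression, the difference in log2 CPM, KO minus WT, was -0.32, which was not tested. *Dagla* and *Abhd12* showed a like pattern, with -0.04 and -0.04 in the 4 libraries and differences of -0.29 and -0.25 in that pair. *Abhd6* went the other way, with -0.16 in the 4 libraries and 0.01 in the pair, and so did *Ppara*, with 0.50 and 0.17. KO replicate 1 was the lowest library for 5 of the 8 genes, namely *Dagla*, *Daglb*, *Mgll*, *Abhd12* and *Cnr1*. This library also stood apart over all genes, with a chi-square per degree of freedom of 7.87 to 14.6 against each other library, where the pairs without it gave 2.79 to 8.18. It had the most fragments and a mitochondrial share of 7.41%, where the other libraries had 6.13% to 7.39%. Single neuron markers stood apart in it as well. *Gad1* was at 581 CPM (238 to 363 in the other libraries) and *Gad2* at 228 CPM (149 to 205). *Slc17a7* was lowest in it, at 1161 CPM (1389 to 1628). Averaged over the 10 neuron markers, its log2 deviation was 0.02, where the other libraries had -0.05 to 0.08. The part of these differences in the values of the 8 genes was not tested. Whether the *Cnr1* difference changed with the split was not tested either.

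A list of markers fixed for cholecystokinin interneurons was read beside *Cnr1*, though several of its genes are also expressed outside the cells that carry most cortical CB1. Of its 8 markers 5 had a higher and 3 a lower fitted value in KO, and the list summed to 399 to 435 CPM in KO and 438 to 572 CPM in WT. The sum is led by *Cck*, the cholecystokinin gene, which is also expressed by pyramidal neurons. *Cck* was at 248, 234 and 253 CPM in KO and at 404, 303 and 266 CPM in WT, without overlap (log2 fold change -0.38, unadjusted p = 0.00706 in limma-voom). *Adarb2*, a marker of interneurons from the caudal ganglionic eminence, was at 39.2, 29.9 and 25.7 CPM in KO and at 22.3, 19.2 and 27.8 CPM in WT (0.46, unadjusted p = 0.0152). *Vip*, the vasoactive intestinal peptide gene, was at 32.2 to 39.0 CPM in KO and at 36.2 to 42.7 CPM in WT (limma-voom, unadjusted p = 0.147). *Slc17a8*, the gene of VGLUT3, was at 2.73 to 3.02 CPM in KO and 3.06 to 4.58 CPM in WT, without overlap (unadjusted p = 0.169 in limma-voom). The other 4 markers had higher fitted values in KO, with log2 fold changes of 0.15 for *Sncg*, 0.05 for *Htr3a*, 0.12 for *Cxcl14* and 0.03 for *Prox1*. Their unadjusted limma-voom p-values were 0.165 to 0.886. *Sncg* was near the floor and overlapped, at 1.41 to 1.76 CPM in KO and 0.705 to 2.29 CPM in WT. Averaged over the 8 markers, log2 CPM deviated from the mean of all libraries by -0.02 to 0.02 in KO and by -0.05 to 0.04 in WT, so the ranges overlapped. The part of cholecystokinin interneurons in the *Cnr1* value was not tested. Of the 10 neuron markers 7 had a lower fitted value in KO, 2 of them (*Snap25* and *Stmn2*) at an unadjusted p-value under 0.05 in limma-voom. Of all genes tested, 48.1% had a lower fitted value in KO, and 3.44% had one at an unadjusted p-value under 0.05.

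**Figure D3:**
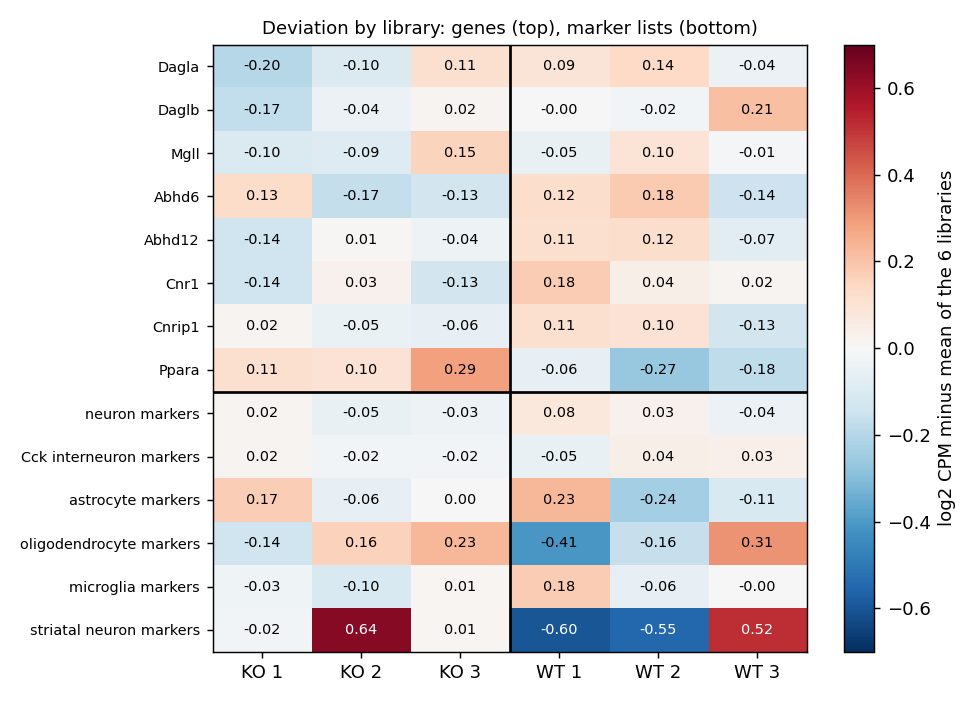
Deviation of log2 CPM from the mean of the 6 libraries, for the 8 genes (top) and as the mean over the genes of 6 marker lists (bottom), with 1 column per library and KO left of the vertical line. Deviations of the genes other than *Ppara* stay between -0.20 and 0.21, whereas the striatal markers range from -0.60 in the library labelled WT replicate 1 to 0.64 in KO replicate 2.

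The start of *Cnr1* is shown with that of *Ppara*, since these are the genes of lowest p-value and of non-overlapping groups. RefSeq windows of the earlier assembly GRCm38.p6 were matched by symbol for 6 of the 8 genes, 10 windows in all. The 250 bases before the first start of *Cnr1*, chr4:33924014-33924263 on the plus strand, and before the start of *Ppara*, chr15:85735526-85735775 on the plus strand, read as below from 5′ to 3′, with the GC box letters GGGCGG on either strand in capitals.
Cnr1: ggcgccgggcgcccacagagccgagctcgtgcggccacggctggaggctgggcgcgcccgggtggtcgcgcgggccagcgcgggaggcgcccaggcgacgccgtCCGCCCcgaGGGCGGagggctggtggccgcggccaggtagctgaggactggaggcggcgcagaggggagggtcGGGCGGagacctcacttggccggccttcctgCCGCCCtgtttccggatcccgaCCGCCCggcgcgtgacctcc
Ppara: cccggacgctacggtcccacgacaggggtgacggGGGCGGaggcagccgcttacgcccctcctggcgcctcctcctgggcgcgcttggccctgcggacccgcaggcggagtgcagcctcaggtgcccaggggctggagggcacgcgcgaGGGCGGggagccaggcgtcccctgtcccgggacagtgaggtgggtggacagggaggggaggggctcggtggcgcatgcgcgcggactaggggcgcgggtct
The *Cnr1* window holds these letters 5 times and is 79.2% G and C, and the *Ppara* window holds them 2 times and is 76.4% G and C. Of all 32851 windows of 250 bases, 32.7% hold the letters at least once, and their median is 52.4% G and C. Of the other windows, 1 each of *Mgll*, *Cnrip1* and *Abhd6* holds the letters 1 time, and a further window each of *Mgll* and *Abhd6*, the other *Cnr1* windows and that of *Daglb* hold none. A match of letters is a description of the window and was not linked to any value here.

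*Cnrip1* encodes CRIP1a, a protein that binds the intracellular tail of CB1 and dampens its constitutive activity. The gene (ENSMUSG00000044629.6) lies on the plus strand of chromosome 11, from 17001586 to 17029371, and shares 199 exonic bases with *Plek* on the other strand. It was at 68.3, 65.2 and 64.7 CPM in KO and at 73.0, 72.2 and 61.6 CPM in WT. The 3 KO libraries lay close together, between WT replicate 3 and the other 2 WT libraries. The fit gave a log2 fold change of -0.06 (SE 0.08, unadjusted p = 0.5003 in limma-voom). It was -0.01 when the library labelled WT replicate 1 was left out, -0.02 without WT replicate 2 and -0.14 without WT replicate 3. Per exon length, *Cnrip1* was at 0.551 ± 0.0457 of the *Cnr1* level in KO and at 0.512 ± 0.0370 in WT (SD, n = 3), with overlapping libraries.

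*Ppara* encodes PPAR-alpha, a nuclear receptor that is activated by fatty acids and by the N-acylethanolamines PEA and OEA, and that switches on fatty acid oxidation genes. The gene (ENSMUSG00000022383.14) lies on the plus strand of chromosome 15, from 85619184 to 85687020. It was counted with 40, 32 and 40 fragments in KO and 30, 24 and 27 fragments in WT. Scaled to CPM, the KO libraries stood at 2.704, 2.68 and 3.12 and the WT libraries at 2.35, 1.96 and 2.12. Every KO library was above every WT library, as for 6.72% of all genes tested. The log2 fold change was 0.39 (SE 0.23), or 31.3% higher in KO with an interval of -7.84% to 87.0%, and the limma-voom p-value was 0.120 unadjusted and 0.673 adjusted. In the 18 alternative fits the log2 fold change was between 0.32 and 0.50 and the unadjusted p-value was at least 0.0904. In the 4 libraries with Y-linked expression it was 0.50 (SE 0.33). At 24 to 40 fragments per library, counting error alone may be a large part of the interval, but its share was not measured.

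**Figure D4:**
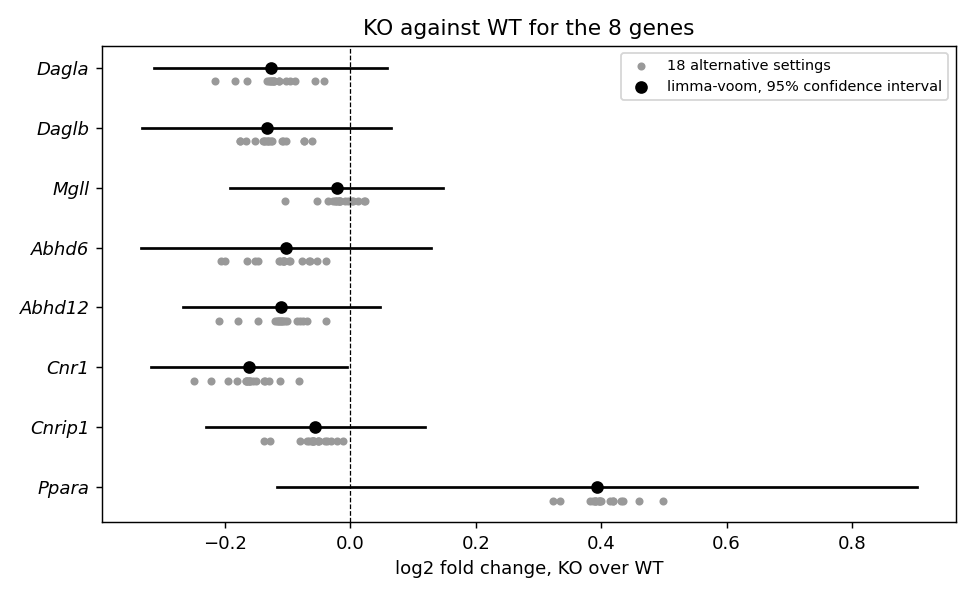
Log2 fold change of KO over WT for the 8 genes, with the limma-voom estimate and its 95% confidence interval in black and the 18 alternative fits as grey points below it; the dashed line marks no change. The interval excludes 0 for *Cnr1* (-0.32 to -0.01) by a small margin and spans 0 for the other 7 genes, *Ppara* having the widest.

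The surrounding pathway was read from 5 lists of genes, given by count and median because no list was tested. Of 19 genes that supply diacylglycerol (Gq-coupled receptors, Gq subunits, Homer scaffolds and phospholipases C), 0 passed after adjustment in limma-voom, and 3 were under 0.05 before it, all with higher values in KO, against 4.38% of all genes tested in that direction. The count was 1 without KO replicate 1, 1 without WT replicate 2 and 1 in the 4 libraries with Y-linked expression. In these fits 830 of 18701, 782 of 18936 and 696 of 18476 genes in all were under 0.05 in either direction. The full fit had 1492 of 19084. The median log2 fold change of the list was -0.02, where that of all tested genes was 0.01. *Homer2*, a scaffold that tethers group I metabotropic glutamate receptors, was at 133, 112 and 115 CPM in KO and at 102, 95.1 and 110 CPM in WT (log2 fold change 0.23, SE 0.08, unadjusted p = 0.0164 in limma-voom). The groups of *Homer2* did not overlap. The phospholipase C gene *Plcd3* averaged 12.7 CPM over the KO and 9.91 CPM over the WT libraries (0.36, SE 0.13, unadjusted p = 0.0203 in limma-voom). Its relative *Plcd4* averaged 18.3 CPM against 14.5 CPM (0.34, SE 0.13, unadjusted p = 0.0213 in limma-voom). The receptor upstream of DAGL-alpha in most cortical synapses, mGlu5, is encoded by *Grm5*, with 235 ± 16.0 CPM for the KO and 237 ± 5.70 CPM for the WT libraries (SD, n = 3).

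Another list of 19 genes held enzymes that remove diacylglycerol or act on 2-AG by other routes. It also held *Camk2a* and *Camk2b*, genes of protein kinase subunits that do neither. Of the 19 genes, 0 passed after adjustment in limma-voom and 1 was under 0.05 before it (0 by edgeR and DESeq2). The latter is 5.26% of the list against 7.82% of all genes tested. The list median was 0.03. The gene under 0.05 was *Dgki*, a diacylglycerol kinase, whose KO libraries averaged 47.4 ± 2.46 CPM and WT libraries 40.4 ± 6.22 CPM (log2 fold change 0.24, SE 0.11, unadjusted p = 0.0405 in limma-voom). The list had 0 such genes without KO replicate 2 (1408 of 18946 genes in all). It had 2 without WT replicate 2 (782 of 18936) or WT replicate 3 (2239 of 18931). With RLE scaling it had 2 (1502 of 19084) and with library totals alone 3 (1489 of 19084). *Faah*, which hydrolyses anandamide and to a lesser extent 2-AG, averaged 118 ± 10.2 CPM in the KO libraries against 114 ± 6.05 CPM. *Ptgs2*, the cyclooxygenase that oxidises 2-AG, averaged 21.0 ± 1.98 CPM in the KO libraries against 21.9 ± 4.05 CPM. For *Faah* and *Ptgs2* the difference of the means was smaller than the SD of either group.

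Of 22 G proteins, adenylyl cyclases, channels and binding proteins through which CB1 acts, 0 were under 0.05 before or after adjustment in limma-voom, edgeR or DESeq2, with a median of -0.02. Of all 19084 genes tested, 7.82% were under 0.05 before adjustment in limma-voom, 1507 genes in edgeR and 902 in DESeq2. Other limma-voom fits gave up to 3 genes under 0.05 before adjustment. The 3 came without KO replicate 2 and WT replicate 3 together, where 1918 of 18759 genes in all were under 0.05. There were 2 without KO replicate 2 (1408 of 18946 genes in all) and 2 with no filter beyond 1 fragment (2115 of 29943). The Y-linked covariate also gave 2 (2008 of 19084), as did the replicate block (1693 of 19084). *Wasf1*, the gene of the actin regulator WAVE1 that complexes with CB1, ranked first by p-value, at 211, 241 and 234 CPM in KO and at 263, 249 and 247 CPM in WT, without overlap (log2 fold change -0.15, SE 0.07, unadjusted p = 0.0503 in limma-voom).

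Among other receptors for 2-AG or related lipids, 5 of 7 could be tested and 0 were under 0.05 before adjustment in limma-voom, edgeR or DESeq2. Of all genes tested, 7.82% were so in limma-voom. There was 1 such receptor gene with library quality weights (1462 of 19084 genes in all) and with no filter beyond 1 fragment (2115 of 29943). There was also 1 on leaving out KO replicate 1 (830 of 18701), WT replicate 2 (782 of 18936) or WT replicate 3 (2239 of 18931). *Cnr2*, the gene of the CB2 receptor of immune cells and microglia, was near the floor with 4, 0 and 2 fragments in KO and 6, 8 and 3 fragments in WT. *Gpr18* (3 fragments or fewer per library) and *Gpr119* (0 fragments) stayed below the filter. *Gpr55* and *Trpv1* had 10 fragments or fewer in every library, so the fitted values of *Cnr2*, *Gpr55* and *Trpv1* rest on few fragments.

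Of 28 partners and known targets of PPAR-alpha, 25 could be tested, 16 with a higher and 9 with a lower fitted value in KO, and the median was 0.03. With limma-voom 0 passed after adjustment and 1 was under 0.05 before it, which is 4% of the tested list against 7.82% of all genes. There were 0 with DESeq2 (902 of 19084 genes in all) and without KO replicate 1 (830 of 18701) or KO replicate 3 (1527 of 18965). There were also 0 without WT replicate 2 (782 of 18936) or WT replicate 3 (2239 of 18931). On leaving out the library labelled WT replicate 1 there were 3 (1019 of 18944). The gene in the full fit was *Acaa1a*, a peroxisomal thiolase of fatty acid oxidation, at 64.2, 58.9 and 59.8 CPM in KO and at 57.4, 50.7 and 52.7 CPM in WT. The groups did not overlap (log2 fold change 0.19, SE 0.08, unadjusted p = 0.0298 in limma-voom). *Cpt1a*, which admits fatty acids to mitochondria, was at 27.1 to 29.8 CPM in KO and 23.0 to 31.2 CPM in WT.

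**Figure D5:**
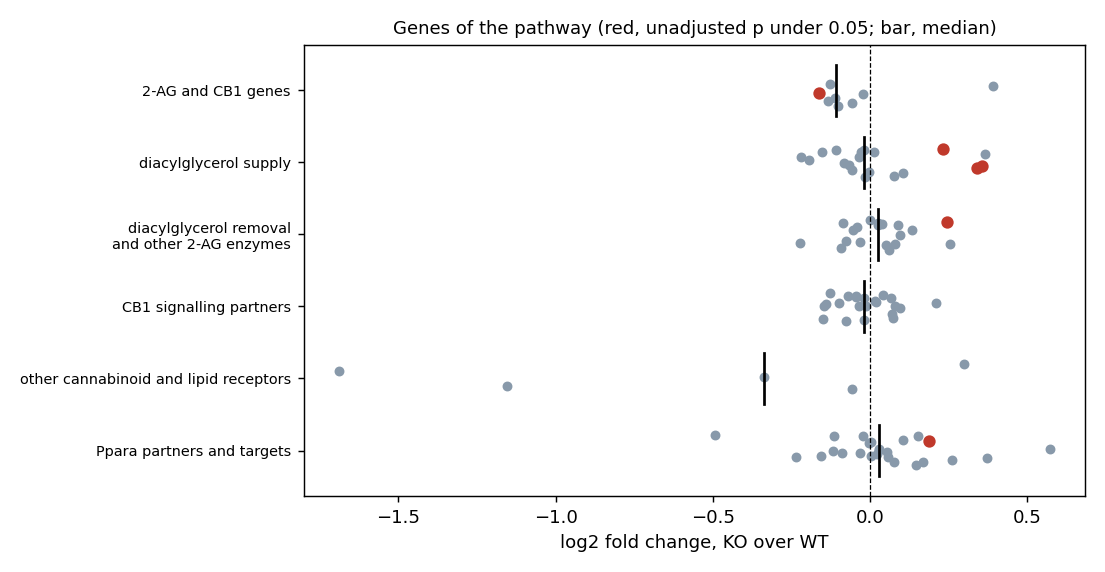
Log2 fold change of KO over WT for the 8 genes (top row) and for the tested genes of 5 pathway lists, 1 point per gene, with red for an unadjusted p-value under 0.05 and a bar at the median. Medians lie between -0.11 and 0.03 except for the list of other receptors, whose -0.34 is the value of *Gpr55* alone (1 to 6 fragments per library) and was 0.12 over the 2 genes kept by a stricter filter.

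The genes whose log2 CPM followed *Cnr1*, *Dagla* and *Mgll* most closely over the 6 libraries were listed among 11944 genes of at least 5 CPM. For *Cnr1* they were *Gap43*, *Ugp2* and *Bop1*, with Pearson r of 0.993, 0.993 and 0.990. *Gap43*, which encodes a growth cone protein, was at 167, 184 and 169 CPM in KO and at 207, 189 and 183 CPM in WT, so that its KO replicate 2 also lay among the WT libraries. For *Dagla* they were *Tnk2*, *Rgs8* and *Rtn2* (r of 0.994, 0.992 and 0.992). For *Mgll* they were *Trpc6*, *Vps33b* and *Cpeb1* (r of 0.990, 0.979 and 0.978). These are the highest of many correlations over 6 points that share depth and tissue composition, and they carry no test.

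Levels of other cell types were read beside the 8 genes. Oligodendrocyte markers summed to 2275, 2607 and 2652 CPM in KO and to 1778, 1972 and 2935 CPM in WT, and 9 of 10 had a higher fitted value in KO, none at an unadjusted p-value under 0.05 in limma-voom. Astrocyte markers, relevant to *Mgll*, summed to 4910 to 5429 CPM in KO and to 4641 to 5400 CPM in WT, and 10 of 10 had a higher fitted value in KO, 0 at an unadjusted p-value under 0.05. Microglia markers, relevant to *Daglb*, *Abhd12* and *Cnr2*, summed to 396 to 427 CPM in KO and to 376 to 471 CPM in WT, and 7 of 10 had a lower fitted value in KO, 1 of them (*Aif1*) at an unadjusted p-value under 0.05. Striatal markers were higher in KO by fitted value for 10 of 10 genes, 1 of them (*Penk*) at an unadjusted p-value under 0.05. These counts stand against 48.1% of all genes with a lower fitted value in KO, and against 4.38% with higher and 3.44% with lower values at an unadjusted p-value under 0.05. A fit without KO replicate 2 and WT replicate 3, the libraries highest in striatal markers, was added after the data were seen. These were the highest KO and the lowest WT library for *Cnr1*, so leaving them out had to widen its difference, and *Abhd12* was placed alike. *Cnr1* was then at -0.25 and *Abhd12* at -0.21 on the log2 scale, whereas *Daglb* was at -0.07 and *Mgll* at 0.0022. In the same fit *Dagla* was at -0.17, *Abhd6* at -0.15, *Cnrip1* at -0.13 and *Ppara* at 0.41. The part of tissue composition in the values of the 8 genes was not tested.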

How the data were processed

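Each deposited file gives unnormalised counts of fragments (read pairs) for every gene of a sample, made by the authors with STAR 2.7.9a and, per the file headers, featureCounts 1.6.0 on the exons of GENCODE M31 (GRCm39), paired and reverse-stranded. The study's methods name an earlier assembly, and coordinates are those of the files. The counting command in the headers set no option for fragments of several places or genes. Symbols matched 52073 of 56923 genes. Group and replicate came from the titles. Genes with at least 6 fragments in at least 1 library were kept (19084), scaled by TMM in edgeR 4.0.16 and compared with voom and limma 3.58.1 in R 4.3.3, without covariates, two-sided, with Benjamini-Hochberg adjustment over all tested genes. The scripts were tested on simulated data. TPM used the exon length of the files, and deviations used log2(CPM + 0.5). Libraries held 11792463 to 14594230 fragments without molecular identifiers, so counting error excludes amplification.

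The 8 genes and the lists were chosen with earlier results of these data known. Named were the 8 genes, *Pla2g4e*, list genes with an unadjusted p-value under 0.05 (or the lowest), the 3 genes most like each of *Cnr1*, *Dagla* and *Mgll*, and markers or pathway genes beside a result. *Grm5*, *Faah*, *Ptgs2*, *Cpt1a*, *Gpr18*, *Gpr55*, *Trpv1* and *Gpr119* fall outside that rule and were chosen after their values were seen. Alternatives were the edgeR quasi-likelihood test, DESeq2 1.42.0, other scalings and filters, quality weights, a replicate block, a Y-linked covariate, the 4 libraries with Y-linked expression, and leaving out libraries.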

Additional observations from a re-analysis of the deposited data

How the results depend on the processing

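In all 18 alternatives, 0 of the 8 genes and 0 genes of the 5 pathway lists passed the adjusted threshold. Over all genes, 1 passed with DESeq2 1.42.0 (*Sst*), 21 with the Y-linked covariate and 3 in the 4 libraries with Y-linked expression (*Eps8l1*, *Col6a4* and *Gfap*). Leaving out each replicate gave 0 to 1 (*Ripor2*, without WT replicate 2). The causes were not tested. Of the 8 genes, 7 kept their direction in every alternative. *Mgll* changed sign with library totals alone (0.0036), without KO replicate 2 and WT replicate 3 together (0.0022, added after the data were seen) and across the fits without single replicates (-0.10461 to 0.023557). With no filter beyond 1 fragment 2115 of 29943 tested genes had an unadjusted p-value under 0.05, against 1492 of 19084 in the reported fit. With DESeq2 there were 902 of 19084, and in the Y-linked libraries 696 of 18476. Fits that left out a single library gave 782 of 18936 (WT replicate 2) to 2239 of 18931 (WT replicate 3), among them 830 of 18701 (KO replicate 1).

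KO and WT samples of one number shared deviations with r of 0.320, 0.077 and -0.026, and 2 of 6 samples matched their own number best, so a number is not treated as a pair. The replicate block gave 0 genes after adjustment and 1693 at an unadjusted p-value under 0.05 in limma-voom. With the replicate block *Cnr1* was at -0.16 (unadjusted p = 0.0489 in limma-voom). Low counts limit *Ppara* (24 to 40 fragments per library) and, among the other receptors, *Cnr2*, *Gpr55* and *Trpv1*.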
